A study of Homo sapiens with 24 samples.

Results

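CDK9 is the kinase of the elongation factor P-TEFb, which releases paused RNA polymerase II into the gene body, and its inhibitors reduce transcription within hours, most visibly that of short-lived transcripts. ATAC-seq marks accessible DNA by inserting sequencing adapters with a transposase, which acts mostly where nucleosomes leave the DNA free. Accessible regions of B cells include promoters, which are open in many cell types, and enhancers, which carry lineage factors such as PAX5, EBF1, SpiB and IRF proteins. The regions described here closed in OCI-LY3 cells after 3 h of the CDK9 inhibitor AZD4573 and were not in the 8 h lists of the same line in either direction. There were 918 of them among the 26369 distinct regions listed in the series, which is 54.7% of the 1677 regions closed in OCI-LY3 at 3 h.

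OCI-LY3 and VAL are 2 human cell lines of diffuse large B-cell lymphoma (DLBCL). Each was exposed to 30 nM AZD4573 and harvested at 0, 3 and 8 h, with 4 libraries per line and time. According to the sample labels, 2 libraries of each condition were made by standard ATAC-seq from 50000 cells and 2 by Fast-ATAC from 5000 cells, whereas the protocol text gives a higher input for Fast-ATAC. All libraries of a condition come from 1 cell line, and the labels do not say which of them are separate cultures. Each treated time had been compared with 0 h in the same line, a control that the lists name DMSO, and the outcome was deposited as 8 lists of coordinates, for opened and closed regions of each line and time.

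The members were selected by 3 of those lists, so their closing at 3 h and their absence at 8 h are the rule and not a finding. Absence from both 8 h lists says that a region did not pass the limits at 8 h, not that its accessibility returned to the level at 0 h. The lists hold no count, fold change or p-value, so the level of a region in each library, the depth, the spread between libraries and the distance of members from the limits could not be given. The 3 h and 8 h comparisons share the 0 h libraries of their line. OCI-LY3 closed at 3 h in 6.36% of all distinct listed regions, and nothing is read from that share because it made the members. The full set of peaks that was tested is not used here, so shares are given among listed regions.

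Members were compared with 3 other classes of OCI-LY3 regions. These were 759 regions closed at both 3 h and 8 h, 2704 closed at 8 h only and 487 opened at 3 h only. A region closed at both times had passed the limits in 2 comparisons and a member in 1. Shares carry 95% Wilson intervals, differences are in percentage points with 95% Newcombe intervals, and p-values come from two-sided Fisher's exact tests over regions, adjusted by the Benjamini-Hochberg method within each family. Regions along a chromosome are not independent replicates, and intervals and p-values cover counting over regions only. The number of the 22 autosomes on which a difference had the same direction is therefore given beside the tests, leaving out ties.

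Most members had no other member within 10000 bp. Merging those within 10000 bp of each other left 907 loci, and 21 members (2.29%) had another member within that distance. Distinct listed regions did not overlap each other, so by the rule no member could overlap an OCI-LY3 8 h region. A region closed at 8 h lay within 10000 bp of 56 members (6.10%) and a region opened at 8 h near 37. The counts of nearby regions were not compared with another class or with random placement. The median member was 1250.5 bp wide, with a range from 402 to 2990 bp.

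Matches to known binding motifs were searched in the central 200 bp of each region, on both strands. The sequences below show 2 members for each of 4 motifs that the text returns to, namely those whose midpoint was nearest to a transcription start site (TSS) of a gene on the prepared lists of B-cell and transcription genes. They were read from GRCh37 (hg19), written 5′ to 3′ on the strand of the match, with the matched bases in capitals and 25 bases on either side. CTCF is the zinc finger protein of chromatin loops, SpiB an ETS factor of B cells, IRF the interferon regulatory factors and AP-1 the JUN and FOS dimers. CTCF, SpiB and IRF matches were allowed 1 mismatch and AP-1 (TGACTCA or TGAGTCA) none.
CTCF, chr5:67581857-67581918, minus strand, intron of PIK3R1: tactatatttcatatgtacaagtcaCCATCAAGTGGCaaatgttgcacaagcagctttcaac
CTCF, chr1:180923095-180923156, minus strand, outside protein-coding genes: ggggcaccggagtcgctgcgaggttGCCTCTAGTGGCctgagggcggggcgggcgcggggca
SpiB, chr4:40175406-40175467, minus strand, outside protein-coding genes: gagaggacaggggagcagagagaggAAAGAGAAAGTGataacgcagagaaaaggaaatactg
SpiB, chr9:123193785-123193846, minus strand, intron of CDK5RAP2: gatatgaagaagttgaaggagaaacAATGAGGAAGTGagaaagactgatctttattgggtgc
IRF, chr6:90928597-90928658, minus strand, intron of BACH2: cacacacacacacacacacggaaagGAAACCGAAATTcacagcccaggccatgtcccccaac
IRF, chr12:6432428-6432489, plus strand, intron of PLEKHG6 near TNFRSF1A: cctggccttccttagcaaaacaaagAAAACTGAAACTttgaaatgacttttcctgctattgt
AP-1, chr6:90928521-90928577, plus strand, intron of BACH2: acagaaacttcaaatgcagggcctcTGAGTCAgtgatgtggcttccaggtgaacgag
AP-1, chr9:86159299-86159355, plus strand, outside protein-coding genes: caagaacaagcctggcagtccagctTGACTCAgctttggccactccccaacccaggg

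The BACH2 region held both an IRF and an AP-1 match inside 1 central window. BACH2 is a transcriptional repressor of B cells. Of the 8 sequences, only the AP-1 match on chromosome 9 lay in a region that had also closed in VAL. The other regions were in none of the VAL lists.

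VAL gave a reading of the same regions that the rule had not used. Of the 918 members, 74 (8.06%, 95% interval 6.47 to 10.0) were closed in VAL at 3 h, 167 (18.2%, 15.8 to 20.8) were closed in VAL at 8 h, 12 (1.31%) were opened there at 3 h and 50 (5.45%, 4.16 to 7.11) at 8 h. Among all 9235 regions listed in OCI-LY3, opened ones included, the corresponding shares were 5.15%, 14.4%, 15.4% and 28.0%. In none of the VAL lists were 673 members (73.3%, 70.4 to 76.1), beside 52.96% of regions closed at both times, 66.6% of those closed at 8 h only, 63.2% of those opened at 3 h only and 55.6% of all 9235 regions, shares that were not tested.

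Members closed in VAL far less often than the regions that stayed on the OCI-LY3 closed list at 8 h. At 3 h the share was 8.06% against 26.7% for regions closed at both times, a difference of -18.7 points (-22.3 to -15.1, Fisher's exact test, adjusted p = 3.32e-24, lower on 19 of 22 autosomes). At 8 h it was 18.2% against 40.1%, a difference of -21.9 points (-26.1 to -17.5, adjusted p = 1.08e-22, lower on 20 of 22 autosomes). Against the regions closed at 8 h only, members were below at 8 h (29.3%, difference -11.1 points, -14.0 to -7.94, adjusted p = 4.35e-11, lower on 20 autosomes), and at 3 h the difference of 0.81 points (-1.09 to 2.96) did not pass the test (adjusted p = 0.424).

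Among the regions that VAL had closed at 3 h, members were less often still closed there at 8 h. Of the 74 members closed in VAL at 3 h, 46 (62.2%, 50.8 to 72.4) were closed there at 8 h and 28 were in neither VAL list at 8 h. Of the 203 regions closed in OCI-LY3 at both times that VAL had closed at 3 h, 163 (80.3%, 74.3 to 85.2) were closed there at 8 h. The difference was -18.1 points (-30.5 to -6.30, two-sided Fisher's exact test, p = 0.00268, lower on 14 autosomes and higher on 4). The VAL calls at 3 h and 8 h share the VAL 0 h libraries, and most members closed in VAL at 3 h were still closed there at 8 h. Over the whole class, VAL closed at 3 h and not at 8 h in 28 of 918 members (3.05%). It did so in 40 of the 759 regions closed at both times, which is a larger share.

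**Figure D1:**
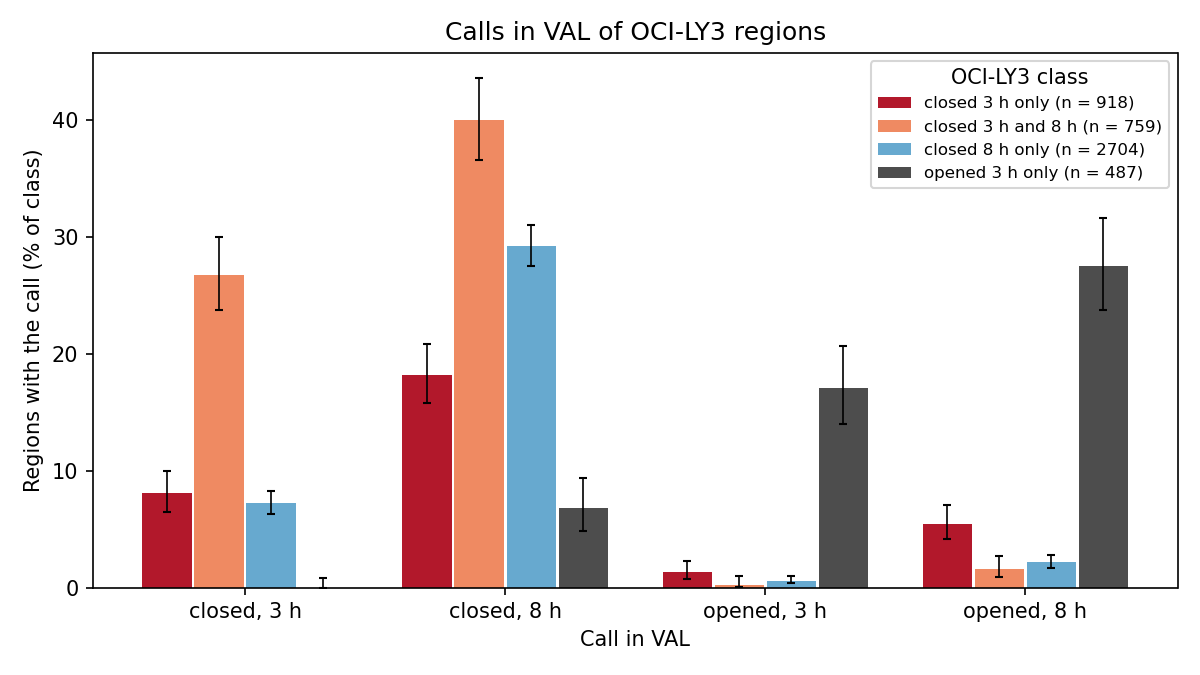
Share of each OCI-LY3 class (in % of its regions) that was called closed or opened in VAL at 3 h and 8 h, with bars for the share and lines for the 95% Wilson interval. The members (closed 3 h only) stood at 8.06% and 18.2% for closing in VAL, below the 26.7% and 40.1% of regions closed at both times, and at 5.45% for opening at 8 h.

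Some members moved the other way in VAL. The 50 members opened in VAL at 8 h, among which were all 12 opened there at 3 h, compared with 1.58% of regions closed at both times (difference 3.87 points, 2.13 to 5.66, Fisher's exact test, adjusted p = 2.88e-05, higher on 17 autosomes) and 2.18% of regions closed at 8 h only (3.26 points, 1.83 to 4.997, adjusted p = 4.32e-06, higher on 17). Their share stayed well below the 27.5% of regions opened in OCI-LY3 at 3 h only (difference -22.1 points, adjusted p = 8.37e-29). At 3 h the opened share of members was above the 0.592% of regions closed at 8 h only by 0.72 points, which did not pass (0.05 to 1.71, adjusted p = 0.0511). It exceeded the 0.264% of regions closed at both times (adjusted p = 0.0331), a call that was lost without the regions near gene 3′ ends, where the adjusted p was 0.153. The members opened in VAL had a higher GC content, 54.5% at the median against 42.9% for the 195 members closed in VAL at either time and 46.5% for those in no VAL list, and 14 of the 50 (28.0%) were at promoters. The part of base composition in these calls was not tested.

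Among the members opened in VAL that covered a protein-coding TSS, 6 are named here. Those at SDHC (chr1:161283383-161284918), a subunit of succinate dehydrogenase, at GLS2 (chr12:56881339-56882497), a mitochondrial glutaminase, and at CSPG5 (chr3:47619297-47621326), a chondroitin sulfate proteoglycan, were opened in VAL at both times. Those at ITGB2 (chr21:46330408-46332145), the beta subunit of leukocyte integrins, HES6 (chr2:239147850-239150176), a bHLH repressor, and B3GALT4 (chr6:33244654-33246000), a galactosyltransferase, were opened at 8 h only. GC content of the 6 regions ran from 53.8% at SDHC to 74.3% at HES6.

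The 28 members closed at 3 h and unlisted at 8 h in both lines were mostly far from start sites. They are taken here by distance to a protein-coding TSS. The nearest of them covered the start site and the first exon of KSR2 (chr12:118406287-118407654), a scaffold of the RAS and MAPK pathway. The next lay 1696 bp from a TSS of SCAND3 (chr6:28556771-28557751), 5235 bp from one of PTGER3 (chr1:71518734-71520876), a prostaglandin E2 receptor, and 5266 bp from one of FRMD3 (chr9:86158727-86159988), which is the region whose AP-1 match is printed above. The other 4 of the 8 nearest were 12689 to 14254 bp from a TSS. They were in an intron of CCDC102A (chr16:57556658-57557794), in an intron of TSPAN14 (chr10:82283723-82284212), over an exon of NPM1 (chr5:170831848-170833041), the nucleolar chaperone nucleophosmin, and outside protein-coding genes on chromosome 14 (chr14:21092208-21094176). Members at BACH2 (chr6:90817592-90818597), a repressor of plasma cell differentiation, and at POU2AF1 (chr11:111229346-111230539), the B-cell coactivator OBF1, had this pattern too.

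The position of members along genes differed from that of regions that closed later. Taken in this order, 144 members (15.7%) came within 1000 bp of an annotated TSS, 50 others (5.45%) had their midpoint in an exon of any annotated gene and 381 (41.5%) in an intron of a protein-coding gene, 80 (8.71%) were in another annotated gene and 263 (28.6%) were intergenic. The promoter share did not separate the closed classes. It was 14.4% for regions closed at both times (difference 1.33 points, -2.14 to 4.73, Fisher's exact test, adjusted p = 0.569) and 12.9% for those closed at 8 h only (2.74 points, 0.17 to 5.52, adjusted p = 0.0592). The second of these passed with a promoter of 2500 bp (4.15 points, adjusted p = 0.00873). Regions opened at 3 h only were at promoters in 57.1% (difference -41.4 points, adjusted p = 6.34e-56, lower on 21 of 22 autosomes).

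The 3′ ends of genes set members apart from both other closed classes. The midpoint of 97 members (10.6%, 8.74 to 12.7) was within 2 kb of the 3′ end of a protein-coding gene, where transcripts are cleaved and polyadenylated. The share was 17.8% (15.2 to 20.7) for regions closed at both times, a difference of -7.22 points (-10.6 to -3.88, Fisher's exact test, adjusted p = 6.39e-05, lower on 18 of 22 autosomes). It was 2.66% (2.12 to 3.34) for regions closed at 8 h only, a difference of 7.90 points (5.96 to 10.1, adjusted p = 8.65e-19, higher on 20 autosomes). Regions opened at 3 h only had 4.93% (5.64 points, 2.70 to 8.32, adjusted p = 0.000481, higher on 20). Members thus lay between the regions that closed at 3 h and kept their call and those that closed later. Each of these differences kept its sign and passed the test under all 5 alternatives tried for this feature, of which 3 (a window of 5000 bp, 3′ ends of canonical transcripts, and regions over 1000 bp from a TSS) were chosen after seeing the data.

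Members near a 3′ end were more often past it than before it. Of the 97, 60 had their midpoint up to 2 kb downstream and 37 up to 2 kb upstream. Within 5 kb, 114 members (12.4%, 10.4 to 14.7) were downstream and 67 (7.30%, 5.79 to 9.16) upstream. For regions closed at both times the same shares were 24.9% and 7.64%, and for those closed at 8 h only 4.36% and 2.81%. Of the 1-kb bins around 3′ ends, the one 1 to 2 kb downstream held the most members, 37 or 4.03%, the same number as the first kb downstream of a TSS.

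**Figure D2:**
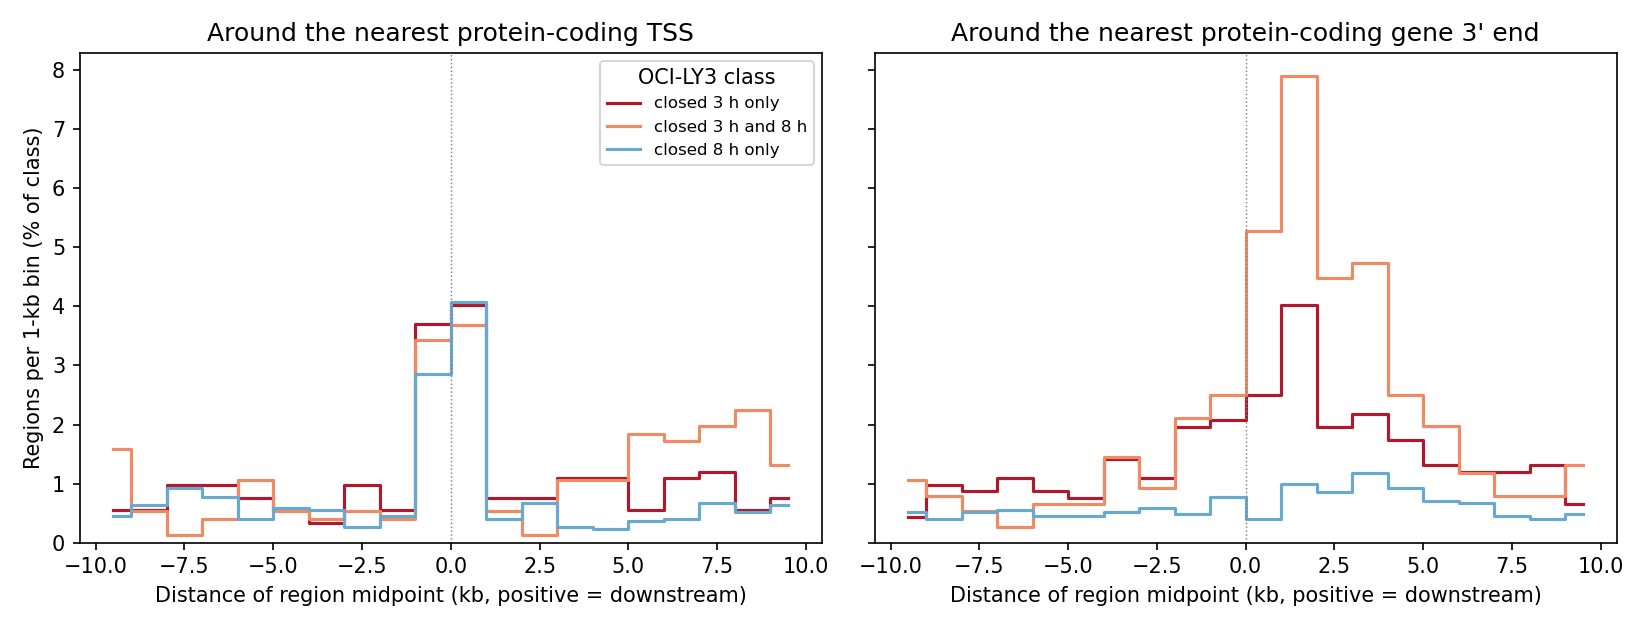
Share of regions per 1-kb bin (in % of the class) by the distance of their midpoint from the nearest TSS (left) and the nearest 3′ end (right) of a protein-coding gene, positive values being downstream. The line of the members peaked 1 to 2 kb past the 3′ end at 4.03%, between the lines of the regions closed at both times and at 8 h only, and the 3 lines ran close together at the TSS.

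The 97 regions were near the 3′ ends of 106 protein-coding genes. Of these, 9 were among the 385 matched genes of the prepared lists, beside 14 of them for regions closed at both times and 1 for those closed at 8 h only. The 9 are named here after their values were seen. The member at EBF1 (chr5:158121997-158123370), a B-lineage transcription factor, was centred 245 bp past the 3′ end. Those at NFKB1 (chr4:103537469-103538829), the p105 and p50 subunit of NF-kB, and at ETV6 (chr12:12047350-12049054), an ETS repressor, were centred 310 and 109 bp before it. The member at TNFAIP3 (chr6:138205355-138206208), the inhibitor of NF-kB signalling A20, was centred 1330 bp past the 3′ end, the one at TCF4 (chr18:52887468-52889236), an E protein, 1064 bp past it, and the one at TRA2B (chr3:185631323-185631807), a splicing regulator, 781 bp past it. That at STAT6 (chr12:57487249-57488556), the transcription factor of interleukin-4 signalling, was centred 1289 bp past its 3′ end and lay over exons of the converging gene NAB2. The other 2 were at MAFK, a small MAF protein, and at TNFRSF8, the receptor CD30. TCF4 was closed in VAL at both times and TRA2B at 8 h only, and the other 7 were in no VAL list.

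Genes of the translation machinery were also found there, again named after the values were seen. The 3′ ends of 5 of 79 cytosolic ribosomal protein genes, RPL38 and RPS18 among them, had a member within 2 kb, against 9 of 79 for regions closed at both times and 1 of 79 for those closed at 8 h only. Over all protein-coding genes the corresponding shares were 0.526%, 0.744% and 0.382%. Many of these genes are short, and a region near their 3′ end can also be close to their start. Further 3′ ends with a member belonged to B2M (chr15:45011470-45012783), the light chain of MHC class I, and LCP1 (chr13:46700328-46701500), the leukocyte plastin. B2M was closed in VAL at 8 h only and LCP1 at both times.

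VAL closed at 3 h in 16 of the 97 members near a 3′ end (16.5%, 10.4 to 25.1) and in 58 of the 821 others (7.06%, 5.50 to 9.02). Among regions closed at both times the shares were 52.6% and 21.2%. Both sets of members were thus below those counterparts. Among regions closed at 8 h only the shares were 15.3% and 7.03%, close to those of members. This split was not tested. Without the regions near 3′ ends, the differences from regions closed at both times in VAL closing at 3 h and at 8 h and in VAL persistence kept their direction and passed the test.

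Among the closed classes, the remaining positions separated members from the regions closed at 8 h only and not, after adjustment, from those closed at both times. The midpoint of 66 members (7.19%) was 1 to 10 kb downstream of a protein-coding TSS and inside the gene, against 6.72% of regions closed at both times (adjusted p = 0.773 by Fisher's exact test) and 4.07% of those closed at 8 h only (3.12 points, 1.42 to 5.10, adjusted p = 0.000472, higher on 15 autosomes). Regions opened at 3 h only had 8.83% (-1.64 points, -4.86 to 1.24, adjusted p = 0.369). Counting any base of a region changed this last value to -21.0 points, past the test. Exons of any annotated gene, counted whether or not a promoter was near, held 102 members (11.1%), against 11.7% (adjusted p = 0.75) and 6.95% (4.16 points, 2.03 to 6.53, adjusted p = 0.000219, higher on 15). Outside protein-coding genes lay 45.2% of members, 50.1% of regions closed at both times (-4.86 points, -9.63 to -0.06, adjusted p = 0.0675) and 55.1% of those closed at 8 h only (-9.86 points, -13.6 to -6.12, adjusted p = 1.07e-06, lower on 16). Regions opened at 3 h only were in exons in 29.4% and outside protein-coding genes in 32.4%, both past the test against members (adjusted p = 3.21e-16 and 1.11e-05).

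**Figure D3:**
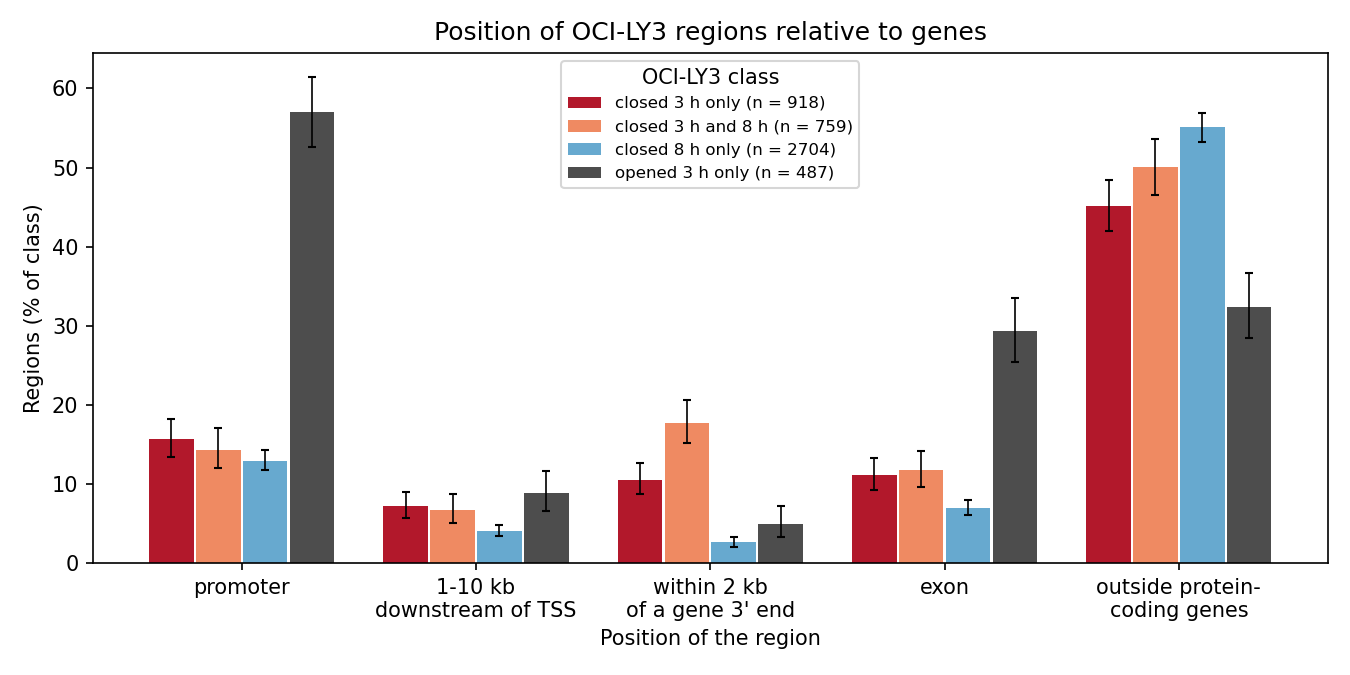
Share of each OCI-LY3 class (in % of its regions) at promoters, 1 to 10 kb downstream of a TSS, within 2 kb of a gene 3′ end, in exons and outside protein-coding genes, with 95% Wilson intervals. The members stood at 10.6% for gene 3′ ends, between 17.8% for regions closed at both times and 2.66% for those closed at 8 h only, while promoters held 12.9% to 15.7% of the 3 closed classes.

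The members' medians of GC content and CpG ratio were the highest of the 3 closed classes and below those of the opened one. Their median GC content was 45.9% (quartiles 41.0 and 52.6), beside 44.5% for regions closed at both times, 42.3% for those closed at 8 h only and 52.4% for those opened at 3 h only. The median observed to expected CpG ratio was 0.227, 0.215, 0.198 and 0.561 in the same order. The medians of width were 1250.5, 1282, 1208 and 1532 bp. The quartile ranges of the closed classes overlapped in each of these measures, and no test was made.

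Of the 18 motifs searched, IRF was the one whose share in members differed from both other closed classes at the settings used. An IRF match was present in 45 members (4.90%, 3.68 to 6.50), in 9.49% of regions closed at both times (difference -4.58 points, -7.18 to -2.12, Fisher's exact test, adjusted p = 0.00597 over 54 tests, lower on 15 of 22 autosomes) and in 8.21% of those closed at 8 h only (-3.31 points, -4.95 to -1.44, adjusted p = 0.01, lower on 15). The share in all listed regions was 3.45%, and in regions opened at 3 h only it was 1.64%, below that of members (3.26 points, adjusted p = 0.0193). Among regions over 1000 bp from a TSS the first 2 differences were -4.42 and -3.11 points, and neither passed (adjusted p = 0.0664 for both). With no mismatch allowed, the first was -1.87 points and passed (adjusted p = 0.0265), and the second was -1.20 points and did not (adjusted p = 0.0701).

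AP-1 matches were found in 39 members (4.25%, 3.12 to 5.75), against 4.74% of regions closed at both times (-0.49 points, -2.58 to 1.49, adjusted p = 0.764) and 6.77% of those closed at 8 h only (-2.52 points, -4.03 to -0.77, Fisher's exact test, adjusted p = 0.0315, lower on 17 autosomes). The share in all listed regions was 3.65%. This difference failed the test over whole regions (adjusted p = 0.23) and over regions away from a TSS (adjusted p = 0.0664). CTCF matches were as frequent, in 39 members (4.25%), with 2.37% of regions closed at both times (1.88 points, 0.12 to 3.61, adjusted p = 0.12), 3.11% of those closed at 8 h only (1.14 points, -0.20 to 2.76, adjusted p = 0.245) and 4.01% of all listed regions. Over whole regions the second of these was 5.32 points and passed (adjusted p = 0.000118). SpiB matched 27 members (2.94%), 3.03% of regions closed at both times (-0.09 points, -1.82 to 1.56, adjusted p = 1), 3.51% of those closed at 8 h only (-0.57 points, -1.76 to 0.88, adjusted p = 0.665) and 2.28% of all listed regions.

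Against the regions opened at 3 h only, 6 motifs differed. CTCF, IRF and AP-1 were more frequent in members, while the promoter motifs of SP/KLF (GGGCGGG, 6.21% against 18.3%, adjusted p = 4.02e-10), NRF1 (0 of 918 against 2.05%, adjusted p = 0.000636) and ETS (CCGGAAGT, 0.545% against 2.46%, adjusted p = 0.0283) were less frequent. NRF1 matched 0.527% of regions closed at both times, 0.074% of those closed at 8 h only and 1.23% of all listed regions, and ETS 0.132%, 0.148% and 1.18%. The NRF1 count of 0 allows a share of up to 0.417%, the upper Wilson limit. None of the 6 differences passed among regions over 1000 bp from a TSS, and with no mismatch allowed those of CTCF and IRF did not pass either (adjusted p = 0.394 and 0.495). Without chromosome 19 the ETS difference was -1.61 points and did not pass (adjusted p = 0.0652). The NF-kB consensus matched 1 member, EBF1 5, the OCT motif ATGCAAAT 40 and the RUNX motif TGTGGTT 61, and none of these shares differed from another closed class after adjustment. The RUNX share was 6.64% in members and 4.84% in all listed regions, and the EBF1 share 0.545% and 0.762%. The SP/KLF, NF-kB and OCT shares of all listed regions were 11.9%, 0.455% and 2.78%.

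**Figure D4:**
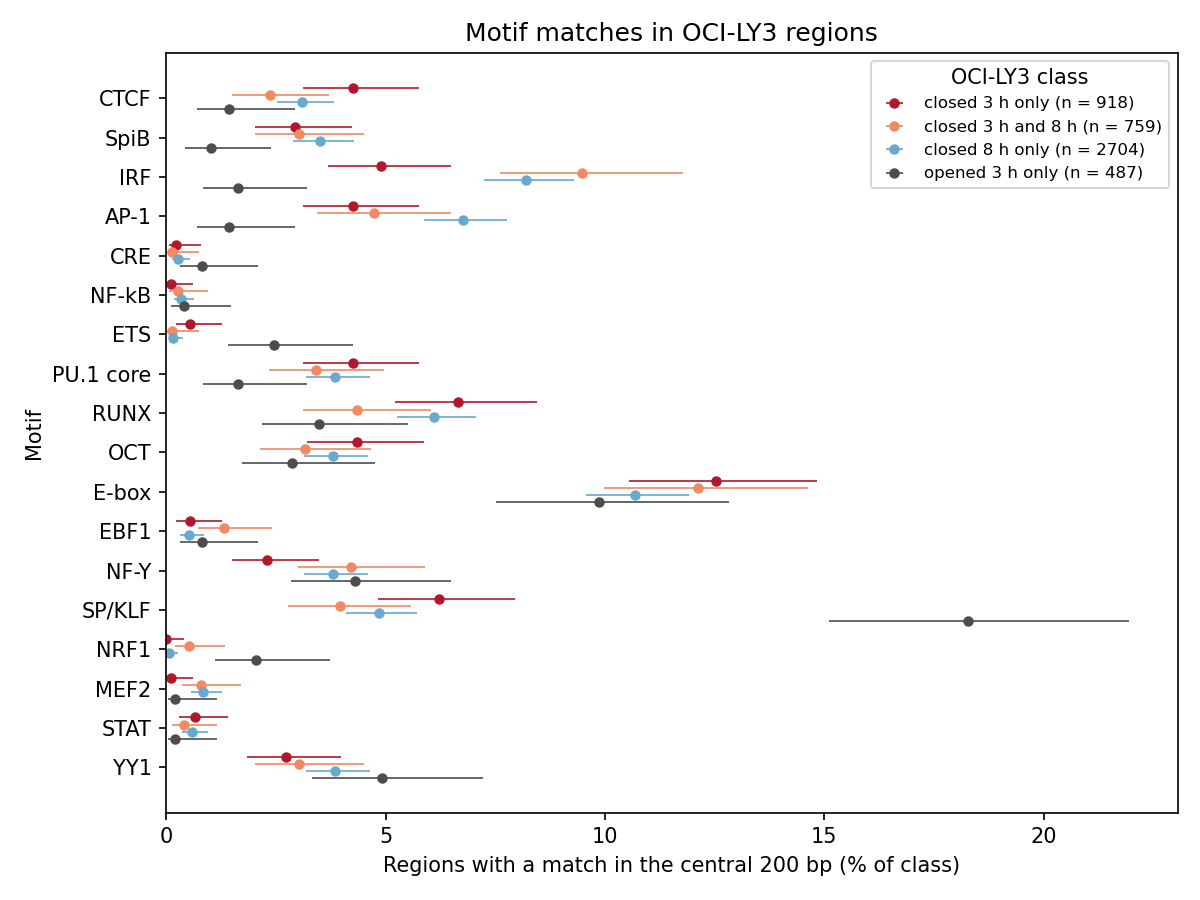
Share of regions with a match in the central 200 bp (in % of the class, horizontal axis) for each of 18 motifs, with points for the 4 OCI-LY3 classes and lines for 95% Wilson intervals. The members' IRF share of 4.90% lay left of the 9.49% and 8.21% of the other closed classes, and SP/KLF set the regions opened at 3 h only apart at 18.3%.

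Genes with a member, within the gene body and 5000 bp on either side, numbered 681, or 3.38% of 20149 protein-coding genes, and 633 genes (3.14%) had a region closed at both times, with 75 genes in common. A region closed at 8 h only was found at 1264 genes (6.27%). Most, 631, had 1 member. Of 385 genes on the prepared lists, 27 had a member and 28 a region closed at both times, with 5 in common. The lists were picked with earlier results known, long genes take in more regions, and no set test was made, so counts are a description.

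Of the prepared lists, regulators of B-cell identity had the most genes with members. On the list of germinal centre and plasma cell regulators, 6 of 23 genes (26.1%) had a member, 3 a region closed at both times and 7 (30.4%) a region closed at 8 h only, beside 3.38%, 3.14% and 6.27% of all protein-coding genes. PAX5, the factor that maintains B-cell identity, had 4 members, all in the gene body. Of these, 3 lay 20320 to 30888 bp from a TSS (chr9:36993734-36994857, chr9:37001623-37003225 and chr9:37004047-37005425) and the other 75717 bp away (chr9:36949249-36950028). PAX5 also held 2 regions closed at both times and 1 closed at 8 h only, and its members were in no VAL list. BACH2 had 3 intronic members (chr6:90817592-90818597, chr6:90831738-90832449 and chr6:90928016-90929145), no region closed at both times and 1 closed at 8 h only. EBF1 had 2, and TCF4, POU2AF1 and MTA3, a component of the NuRD complex, had 1 each.

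B-cell receptor signalling followed with 5 of 27 genes (18.5%), beside 2 with a region closed at both times and 3 (11.1%) with a region closed at 8 h only, to be read beside the same shares of all protein-coding genes. The kinase SYK had a member in an intron (chr9:93642858-93644729), as had the adaptors PIK3AP1 (chr10:98426134-98427188) and DAPP1 (chr4:100776482-100777647) and the PI3K subunit PIK3R1 (chr5:67581490-67582367, whose CTCF match is printed above). DAPP1 was closed in VAL at 8 h only, and SYK, PIK3AP1 and PIK3R1 were in no VAL list. On the NF-kB pathway list, NFKB1 and TNFAIP3 had members (2 of 24 genes), the same number as had a region closed at both times, and 0 had one closed at 8 h only.

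Other lists had 1 or 2 genes each, to be read beside the shares of all protein-coding genes. Those were 3.38% with a member, 3.14% with a region closed at both times and 6.27% with one closed at 8 h only. The list of SR and hnRNP splicing factors had 2 of 25 (SRSF7 and TRA2B) beside 8 for regions closed at both times and 1 for those closed at 8 h only. The AP-1 family had 2 of 15, MAFK among them, TNF ligands and receptors TNFRSF1A and TNFRSF8 (2 of 25), and the chemokine and migration receptors GPR183 and ITGB2 (2 of 17). Regions closed at both times were found at 0 genes of these 3 lists, and regions closed at 8 h only at 1, 1 and 2. ETV6, STAT6, NR4A1, the elongation factor ELL2, the chaperone DNAJA1 and the NOTCH coactivator MAML2 were single genes of their lists. No gene with a member was found among 9 interferon regulatory factors, 16 MHC class II genes, 16 BCL2 family genes, 8 MYC and PIM genes, 32 Mediator subunits, 14 CTCF and cohesin genes, 14 chromatin modifiers mutated in lymphoma or 15 genes of the p53 axis. Regions closed at both times were found at 1 or 2 genes of each of these lists except Mediator, which had 0. At the shares of all protein-coding genes, lists of this size can hold 0 or 1 gene. Their presence or absence was therefore not read as a result about a list.

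Members at promoters of listed genes included those of MTA3, ITGB2 and GPR183. The member at MTA3 (chr2:42720494-42722782) also covered the first exon of KCNG3. It was 2289 bp wide with a GC content of 63.1%, and was in no VAL list. The member at ITGB2 was opened in VAL at 8 h, whereas that at GPR183 (chr13:99958550-99960225), the oxysterol receptor that guides B-cell migration, had a GC content of 35.7% and was closed in VAL at 8 h.

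Over all protein-coding genes, those with 3 or more members, taken by count and then by shorter length, were PAX5, AFF3, AUTS2, ABHD12, WNT5B, TRIM2, BACH2 and CAMKMT, plus an unnamed gene that shares the members of TRIM2. AFF3, a lymphoid member of the AF4 family, had 4 members over 647010 bp and AUTS2, a gene of neural development, 4 over 1195211 bp. One member of each, at chr2:100477420-100479266 and chr7:69308443-69309702, was closed in VAL at both times, and the other 6 were in no VAL list. ABHD12, a lipid hydrolase, was the shortest of the genes with 3, at 96094 bp. Its member at the 3′ end (chr20:25274807-25276062) was closed at 3 h only in VAL as well, one inside the gene (chr20:25298530-25300346) was closed in VAL at 8 h only, and the third was in no VAL list. ABHD12, TRIM2 and the unnamed gene had no region of either other closed class.

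By chromosome, the share of regions closed at 3 h that were members varied around the 54.7% of the whole. It was highest on chromosomes 22 (17 of 20, 85.0%, 64.0 to 94.8) and 20 (18 of 22, 81.8%, 61.5 to 92.7) and lowest on chromosome 12 (52 of 128, 40.6%, 32.5 to 49.3). Chromosome 2 had the most members, 80, and chromosome 19 had 5 of 7 regions closed at 3 h. These shares use the calls of the rule and are given without a test.

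**Figure D5:**
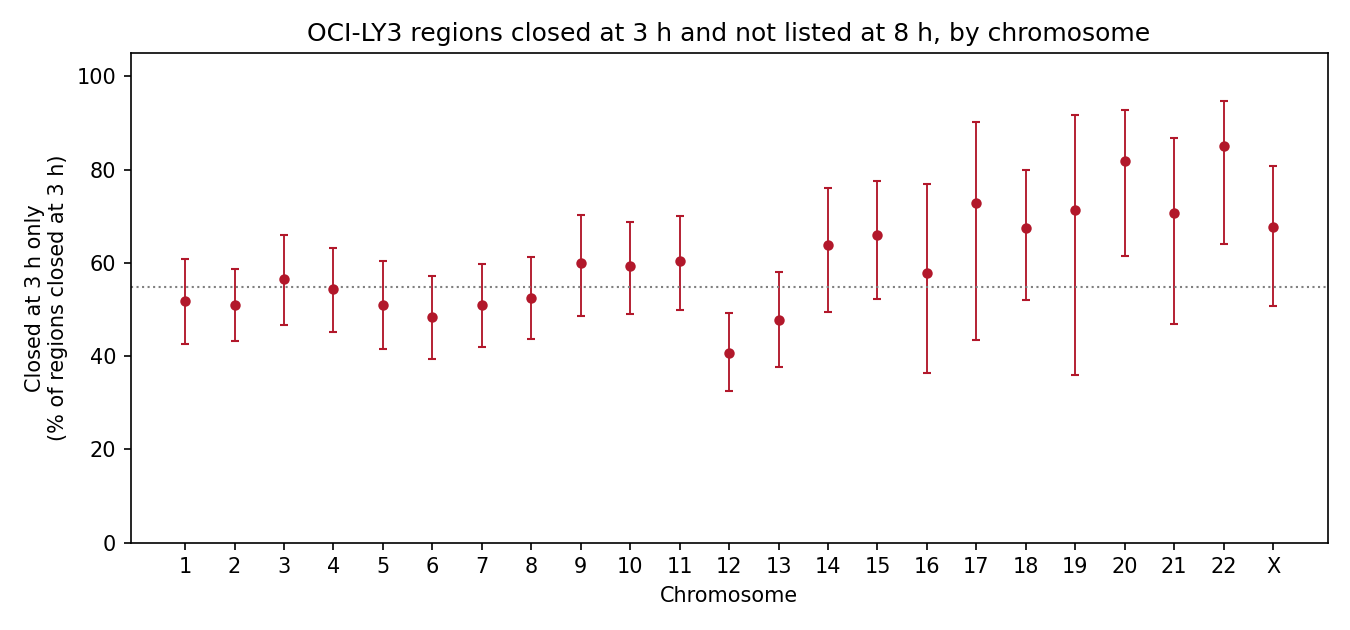
Members as a share of the OCI-LY3 regions closed at 3 h (in %) on each chromosome, with points for the share, lines for 95% Wilson intervals and a dotted line at 54.7% for all chromosomes. Chromosomes 20 and 22 lay at 81.8% and 85.0% and chromosome 12 at 40.6%, with wide intervals where few regions had closed.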

How the data were processed

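ATAC-seq was run on 24 libraries. By the methods and the labels, the authors used Bowtie2 for alignment to hg19, dropped reads that were mitochondrial, not uniquely placed or duplicated, called MACS2 peaks in each sample, joined them with bedtools into a common set, and tested the read counts in that set with DESeq2 for each treated time. The limit on the adjusted p is stated in 2 different ways. A transposase offset and a term for library protocol are not given in the sources used here. The 8 deposited lists used here hold coordinates from the authors without scores, counts or fold changes, with 0 columns of per-sample values, and other tables of the study were not used here.

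Regions were matched by equal coordinates and printed 1-based. Sequence was GRCh37 and annotation the GENCODE v44 lift to that build, no region ran past a chromosome end, and TSS were those of transcripts tagged basic. Positions used midpoints, except promoters, for which any part of the region within 1000 bp of a TSS counted. Tools were Python 3.11.15 with scipy 1.17.1 for tests, pysam 0.24.0 for sequence, pandas 2.3.3 and numpy 2.4.6. Fisher's exact tests were adjusted over 12 VAL, 15 position and 54 motif tests at a threshold of 0.05, and persistence was 1 test. The scripts were tested on simulated data. The members, gene lists, motifs and comparators were chosen with earlier results of these data known. Genes were named if a listed gene had a member within 1000 bp of a TSS, if they had 3 or more members, or as the 8 members nearest to a protein-coding TSS among those closed at 3 h only in both lines. The 6 named among members opened in VAL covered such a TSS, and not all that did so are named. Other genes with values come from the lists or are said to be named after their values were seen. Some genes that met these rules are not reported here.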

Additional observations from a re-analysis of the deposited data

How the results depend on the processing

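No paired analysis was possible because no list gives values for single libraries, and leaving out single replicates could not be run for the same reason. With regions over 2000 bp from a gene 3′ end, an alternative chosen after seeing the data, the difference between members and regions closed at both times in opening in VAL at 3 h was 0.78 points and no longer passed the test. A promoter of 2500 bp gave 4.15 points against regions closed at 8 h only, which passed. Counting any base of a region in place of its midpoint turned the difference from regions closed at both times to -0.30 points for the stretch 1 to 10 kb downstream of a TSS and to 0.34 points for exons, neither past the test, and moved that stretch against regions opened at 3 h only from -1.64 points, which did not pass, to -21.0 points, which did. The motif counts past the threshold (1 against regions closed at both times, 2 against those closed at 8 h only and 6 against those opened at 3 h only) fell to 0, 0 and 0 among regions over 1000 bp from a TSS. There the SP/KLF and ETS differences from regions opened at 3 h only turned to 0.14 and 0.39 points. SpiB turned against regions closed at both times over whole regions (1.98 points) and with 0 mismatches (0.28), where it also turned against regions closed at 8 h only (0.32), none past the test. These changes were not traced further: the cause was not tested. Of 155 alternative values, 129 counted as unchanged, which means the same direction and side of the threshold for a test, within 1.5 times for a count, and within the 95% interval of a share or the quartiles of a GC content. The alternatives that matched regions by an overlap of 1 bp could not change any value, because distinct listed regions did not overlap. They count among the 129.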
